A study of Saccharomyces cerevisiae with 11 samples.

Results

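Cells of budding yeast (Saccharomyces cerevisiae) lacking CTR9 were compared with wild type cells on 3 Affymetrix expression arrays, 1 for the ctr9 deletion and 2 for wild type. These are 3 of the 11 arrays of the study, chosen by their titles alone. Of 9275 probe sets other than the manufacturer's controls, the 6493 that were bright enough were tested. Counts of genes use 1 probe set for each of 4975 genes. All 3 liquid cultures were grown in YPD with 4% glucose and taken in mid-log phase, and about 8 µg of total RNA per sample was turned into biotinylated cRNA. The labels give no strain background, marker or mating type, and do not say whether the wild type arrays came from separate cultures, so p-values measure only the spread between arrays, which may be technical. The paf1 deletion (2 arrays, same medium) is given beside the comparison where it carries the same genes. So is a TetO2-Paf1 strain (6 arrays, 0 to 8 h), in which doxycycline is meant to turn PAF1 off.

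Ctr9 is a subunit of the Paf1 complex, with Paf1, Cdc73, Rtf1 and Leo1. The complex travels with RNA polymerase II along genes and is needed for histone H2B ubiquitylation and for histone H3 methylation that depends on it. It also acts in elongation and in the formation of RNA 3′ ends, including those of small nucleolar RNAs. In yeast, loss of Paf1 or Ctr9 gives a stronger growth defect than loss of the other subunits.

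Each strain array held a score per probe set between -10 and 10, on a scale the sources used here do not state. A score follows transcript level but is not a fold. Probe sets with wild type scores of 2 to 4 had a median signal of 41.2 in the TetO2-Paf1 strain at 0 h, those of 4 to 6 had 131, those of 6 to 8 had 463 and those of 9 to 10 had 1905. In the brightest 10% of probe sets the ctr9 score did not track the mean signal of those 6 arrays (Spearman correlation -0.268 over 928 probe sets, against 0.903 over all), so differences in abundant transcripts can be compressed. The 28 control probe sets with no yeast target scored from -2.08 to 1.93, which is taken here as the background range. The 5 strain arrays had median scores of 4.78 to 5.03. Across probe sets the ctr9 array correlated at 0.826 and 0.831 with the wild type arrays (Pearson), which correlated at 0.886 with each other. The number of arrays limits the precision of every value.

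CTR9 itself, on chromosome XV, scored 1.84 and 4.36 in wild type against 0.00 in the ctr9 deletion. The deletion array was the lowest and lay within the background range, but the wild type arrays differed from each other by more than the deletion differed from the lower of them. The mean difference of -3.10 did not pass (SE 1.14, limma adjusted p = 0.414). None of the other subunit genes passed. PAF1 scored 7.27 and 8.08 in wild type against 6.86 in the ctr9 deletion, CDC73 6.06 and 5.85 against 6.36, RTF1 4.23 and 5.93 against 5.75, and LEO1 5.94 and 5.30 against 5.77. Only PAF1 lay below both wild type scores and only CDC73 above both. The genes on either side of CTR9 were PSF3, NOP8, PEX11 and RIB4. PSF3, a subunit of the GINS replication complex, scored 5.56 and 5.69 in wild type against 5.82 in the deletion, and NOP8, a ribosome assembly factor, 4.68 and 4.05 against 4.44. PEX11, a peroxisome division gene, had 6.83 and 7.28 against 6.45, and RIB4, of riboflavin synthesis, 7.25 and 6.41 against 6.12. PSF3 lay above both wild type scores, NOP8 between them, and PEX11 and RIB4 below both, none of them clear as defined below.

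With 1 array against 2, an exact permutation test of the absolute difference (two-sided) cannot give a p below 0.333 for any gene. A linear model over all 5 strain arrays, in which the ctr9 array is assumed to vary like the replicated groups, called 2 of 6493 probe sets (0.0308%; limma, Benjamini-Hochberg adjusted p under 0.05), both higher in the ctr9 deletion. At an unadjusted p under 0.05 there were 626, 358 higher and 268 lower. The count was not stable, since it changed when any 1 of the wild type or paf1 deletion arrays was left out. Such a model keeps only 1 group with 2 arrays from which to estimate the spread. Genes are therefore described below by the gap, which is the ctr9 score minus the nearer wild type score. A gene is called clear when its gap is at least 1.86 score units, the 95th percentile of the differences between the wild type arrays (their median was 0.57). For each gene the probe set with the highest mean score was used, and 4975 of 5656 genes were bright enough to be tested.

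YNR064C, on chromosome XIV, had the largest gap of the 4975 genes. It encodes an epoxide hydrolase. It scored 0.23 and -0.19 in wild type, within the background range, and 6.36 in the ctr9 deletion, so the size of its difference depends on scores at background. It was 6.34 score units higher (SE 0.768, limma adjusted p = 0.0222). The other call, probe set 3982_at, is listed with no gene. It scored 1.12 and -0.58 in wild type against 7.28 in the ctr9 deletion. That is 7.01 higher (SE 0.826, limma adjusted p = 0.0222). Both wild type means, 0.02 and 0.27, were under the brightness limit of 2.84, so these probe sets were tested only through the deletion arrays. Without the brightness limit the adjusted p was 0.0656 for both (limma), and with a limit on the TetO2-Paf1 signal instead YNR064C was not tested. In the TetO2-Paf1 strain 3982_at was bright at every time, from 9431 to 11417 signal units, including 0 h. YNR064C was dim there, with 12.9 signal units at 0 h and 27.3 at 8 h.

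The ctr9 score lay above both wild type scores in 1766 genes (35.5%), below both in 1517 (30.5%) and between them in 1692. It was clear higher in 101 genes (2.03%) and clear lower in 73 (1.47%). Gaps ran from -4.33 to 6.13, and the median difference from the wild type mean over all genes was 0.06. The limit cut a continuous range. CDC20, DAM1 and RSM22 lay just inside it on the higher side, at 1.88 and 1.89, and PZF1, SLK19 and APE1 just outside, at 1.84 and 1.85. On the lower side the tRNA genes YNCD0019C and YNCE0008C lay inside at -1.86 and -1.87, while the tRNA genes SUF2 and YNCE0005W and the deleted gene CTR9 lay outside at -1.84 to -1.85. Many of the clear higher genes were dim in wild type. Their wild type mean was under the brightness limit of 2.84 in 42, and such genes passed the filter only through the deletion arrays. Both wild type scores were in the background range for 12 of the 101, and the ctr9 score was in it for 7 of the 73 clear lower genes.

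**Figure D1:**
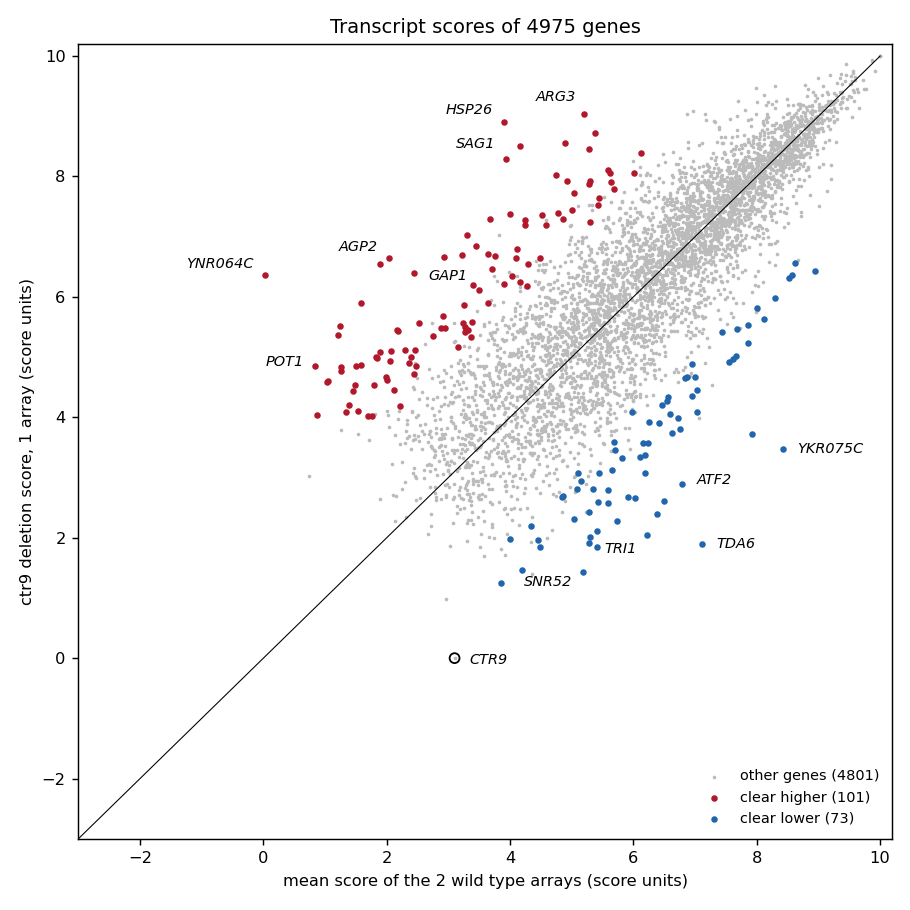
The ctr9 deletion score (1 array, vertical axis) is plotted against the mean score of the 2 wild type arrays (horizontal axis) for 4975 genes, both in score units, with the line of equality. The 101 clear higher genes (red) sit mostly at low wild type scores, the 73 clear lower genes (blue) lie below the line, and CTR9 is circled at 0.00.

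Genes for taking up and using amino acids and other nitrogen sources were among those with the highest gaps. AGP2, a membrane protein that controls carnitine and polyamine uptake, scored 1.95 and 2.13 in wild type against 6.64 in the ctr9 deletion. Both wild type scores were low and close together, and the gap of 4.51 was the second largest (difference 4.60, SE 0.728, limma adjusted p = 0.0777). GAP1, the general amino acid permease, had 2.15 and 2.74 in wild type against 6.40, and DUR3, a urea and polyamine transporter, 4.48 and 4.01 against 7.27. PUL3, which was held in the same list though no role in nitrogen use is shown here, had 2.13 and 1.05 in wild type against 5.89. In these 4 genes the ctr9 array was high and both wild type arrays were low, without overlap. Of 34 tested genes for nitrogen catabolism and permeases, 16 (47.1%) were above both wild type arrays, 4 (11.8%) below both and 4 (11.8%) clear higher. Over all genes these shares were 35.5%, 30.5% and 2.03%. The wild type means of AGP2, PUL3 and GAP1 were under the brightness limit of 2.84, so these genes were tested only through the deletion arrays. The median difference of the 34 genes was 0.62. That median was 0.10 against the first wild type array alone and 0.70 against the second. It was 0.375 with no brightness limit and 0.20 with the limit at the 50th percentile. Some other permeases lay on the other side. SAM3, the S-adenosylmethionine permease, scored 8.70 and 8.49 in wild type against 7.68 in the deletion, and TAT2, the tryptophan permease, 7.75 and 7.39 against 6.80.

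Most of the stress-induced genes tested scored above both wild type arrays in the ctr9 deletion. HSP26, a small heat shock protein that binds unfolded proteins, scored 3.02 and 4.78 in wild type against 8.91 in the ctr9 deletion, with a gap of 4.13 (difference 5.01, SE 0.758, limma adjusted p = 0.0777). AMS1, the vacuolar mannosidase, had 3.09 and 5.22 in wild type against 8.51, and HBT1, needed for mating projections, 1.72 and 2.41 against 5.10. PAI3, an inhibitor of the vacuolar proteinase A, had 1.93 and 1.77 in wild type against 4.99. The wild type scores of HBT1 and PAI3 were under the brightness limit of 2.84, so these genes were tested only through the deletion arrays. Of 62 tested stress-induced genes, 50 (80.6%) were above both wild type arrays and 2 below both, beside 35.5% and 30.5% of all genes. Clear higher were 11 of them (17.7%, beside 2.03% of all genes) and clear lower was none. Their median difference was 1.20, and it was 0.865 with the brightness limit at the 50th percentile. With a limit on the TetO2-Paf1 signal instead it was 0.89. The exceptions on the lower side, HOR7 and GPP2, had gaps of only -0.39 and -0.33. Among 32 chaperone genes the count was 18 (56.25%) above and 7 (21.9%) below, and the median difference was 0.33. HSP104, the disaggregase, was at 5.84 and 6.11 in wild type against 7.57 in the deletion.

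Genes of glycogen enzymes were among the clear higher genes. GSY1 and GSY2 encode the glycogen synthases. GSY1 scored 5.45 and 4.33 in wild type against 8.55 in the ctr9 deletion, and GSY2 3.97 and 5.06 against 7.36. The branching enzyme gene GLC3 had 4.80 and 3.68 in wild type against 7.20, the phosphorylase gene GPH1 2.05 and 4.55 against 7.02, and the debranching enzyme gene GDB1 4.59 and 4.96 against 7.40. Enzymes that build glycogen and enzymes that break it down were thus both clear higher. Of 20 tested glycogen and trehalose genes, 16 were above both wild type arrays, 2 were below both, and the median difference was 1.34. PIG2, a putative targeting subunit of a protein phosphatase, was the member that was clear lower, at 4.81 and 4.91 in wild type against 2.70 in the deletion.

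**Figure D2:**
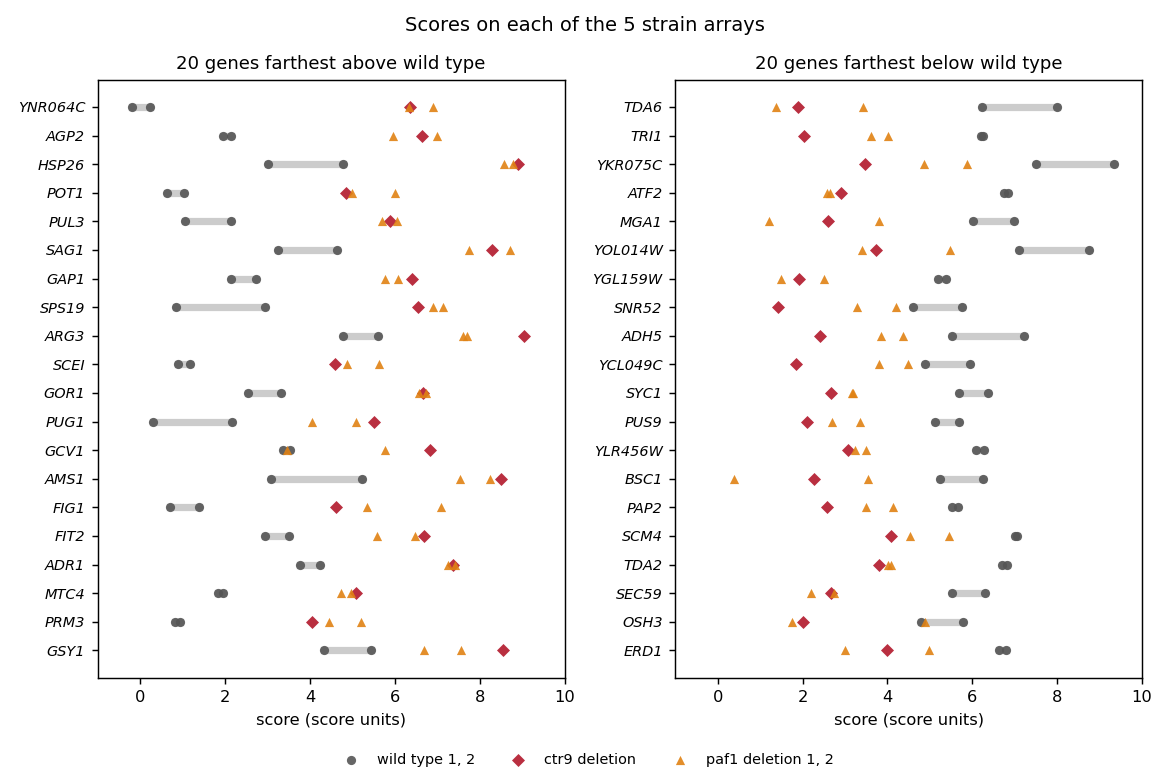
Scores on each of the 5 strain arrays are shown for the 20 genes with the highest gap (left) and the 20 with the lowest (right). Grey circles joined by a bar are wild type, red diamonds the ctr9 deletion and orange triangles the paf1 deletion. The red diamond lies outside the wild type bar in every gene, as the choice of genes fixes.

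Genes of respiration and of growth on carbon sources other than glucose also lay above both wild type arrays more often than below. POT1, the peroxisomal thiolase of fatty acid oxidation, scored 1.03 and 0.64 in wild type against 4.86 in the ctr9 deletion. SPS19, a peroxisomal dienoyl-CoA reductase, had 0.84 and 2.95 in wild type against 6.55. ADR1, a transcription factor for glucose-repressed and peroxisomal genes, had 3.77 and 4.23 in wild type against 7.38. Of 16 tested genes of peroxisomal fatty acid oxidation, 7 (43.8%) were above both wild type arrays and 3 (18.8%) below both. Over all genes these shares were 35.5% and 30.5%. POT1, SPS19 and ADR1 were clear higher. The wild type means of POT1 and SPS19, 0.835 and 1.895, were under the brightness limit of 2.84, so both were tested only through the deletion arrays. The median difference over the 16 was 0.49, and it was -0.06 over the 7 genes left when the brightness limit was set at the 50th percentile.

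PCK1, the gluconeogenic enzyme, scored 2.13 and 2.30 in wild type against 4.19 in the ctr9 deletion, and ADH2, the glucose-repressed alcohol dehydrogenase, 3.31 and 3.86 against 5.52. The wild type scores of PCK1 were under the brightness limit of 2.84, so it was tested only through the deletion arrays. Of 27 glucose-repressed and gluconeogenic genes on the array, 15 were bright enough to be tested. Among these, 8 (53.3%) were above both wild type arrays and 1 (6.67%) was below both. Over all genes these shares were 35.5% and 30.5%. The median difference of the 15 genes was 0.89 (0.57 against the first wild type array alone). It was 0.56 with the brightness limit at the 50th percentile. Of 51 genes of respiration and the TCA cycle, 26 (51.0%) were above and 4 (7.84%) below, with a median difference of 0.32 and none clear. The largest gap among them was that of MCR1, a mitochondrial cytochrome b5 reductase, at 7.0 and 7.31 in wild type against 9.03 in the deletion. Mitochondrial ribosomal protein genes gave 39 (54.9%) above and 7 (9.86%) below of 71. Their median difference was 0.31 (0.14 and 0.49 against the single wild type arrays). Clear higher was 1 of them, RSM22 (1.41%, beside 2.03% of all genes). Cytosolic ribosomal protein genes gave 5 (6.17%) above and 2 (2.47%) below of 81. Ribosome biogenesis genes gave 36 (31.6%) above and 32 (28.1%) below of 114, near the shares of all genes. The median differences, 0.04 and 0.05 in the same order, both changed sign between the single wild type arrays.

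Genes of arginine synthesis lay on both sides of wild type. ARG3, ornithine carbamoyltransferase, scored 4.78 and 5.61 in wild type against 9.04 in the ctr9 deletion, above all other strain arrays (difference 3.85, SE 0.621, limma adjusted p = 0.0794). ARG80, a regulator that represses arginine synthesis genes, lay on the other side, with 5.13 and 5.57 against 2.81, and so did ORT1, the mitochondrial ornithine transporter, with 6.07 and 5.11 against 2.79. ARG1, argininosuccinate synthetase, was at 8.85 and 8.20 in wild type against 7.93 in the deletion. Of 12 tested genes of arginine synthesis and the urea cycle, 6 were above both wild type arrays and 5 below both, with a median difference of 0.00. SER3, a serine synthesis gene that is known in yeast to be repressed through transcription across its promoter in a way that needs the Paf1 complex, scored 4.40 and 2.88 in wild type against 6.72 in the ctr9 deletion.

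In the pheromone response list 3 genes of mating (9.68%, beside 2.03% of all genes) were clear higher. FIG1, a membrane protein of mating, scored 0.70 and 1.38 in wild type against 4.61 in the ctr9 deletion, PRM3, needed for nuclear fusion, 0.93 and 0.81 against 4.04, and PRM1, of membrane fusion, 2.26 and 2.79 against 5.57. The wild type scores of FIG1 and PRM3 were in the background range. Those of PRM1 were also under the brightness limit of 2.84, so all 3 genes were tested only through the deletion arrays. Of 31 tested pheromone response genes, 15 (48.4%) were above both wild type arrays and 7 (22.6%) below both. Over all genes these shares were 35.5% and 30.5%. The median difference of the 31 genes was 0.30 (0.18 against the second wild type array alone). SAG1, the alpha-agglutinin normally made by alpha cells, scored 4.63 and 3.24 in wild type against 8.29 in the deletion, with a gap of 3.66 (difference 4.36, SE 0.758, limma adjusted p = 0.103). The alpha-factor genes MF(ALPHA)1 and MF(ALPHA)2 scored 1.79 and 1.52 in wild type against 0.85 and 1.82 and 2.05 against 3.10. STE3, the a-factor receptor, scored 1.69 and 1.89 against 2.23, and all 3 genes were too dim to be tested. Genes of a cells were expressed on all 3 arrays, with STE2, the alpha-factor receptor, at 8.28 and 8.15 in wild type against 7.42 in the deletion. Of 6 tested a-specific genes, 3 were below both wild type arrays and none above. The 6 markers of sporulating diploids, IME1, IME2, SPO11, SPS4, DIT1 and NDT80, were too dim to be tested, with scores of -0.97 (SPO11) to 3.15 (IME2) in wild type and -0.04 (SPO11) to 3.29 (SPS4) in the deletion. Of the 30 genes of the sporulation list only 6 were tested. Of these, 4 (66.7%) were above both wild type arrays and none below, with a median difference of 0.57. SPS100, a spore wall gene, was clear higher at 1.45 and 2.08 in wild type against 4.02 in the deletion. It too was under the brightness limit in wild type and was tested only through the deletion arrays. In such bulk cultures fewer cells of a type and less RNA per cell cannot be told apart.

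**Figure D3:**
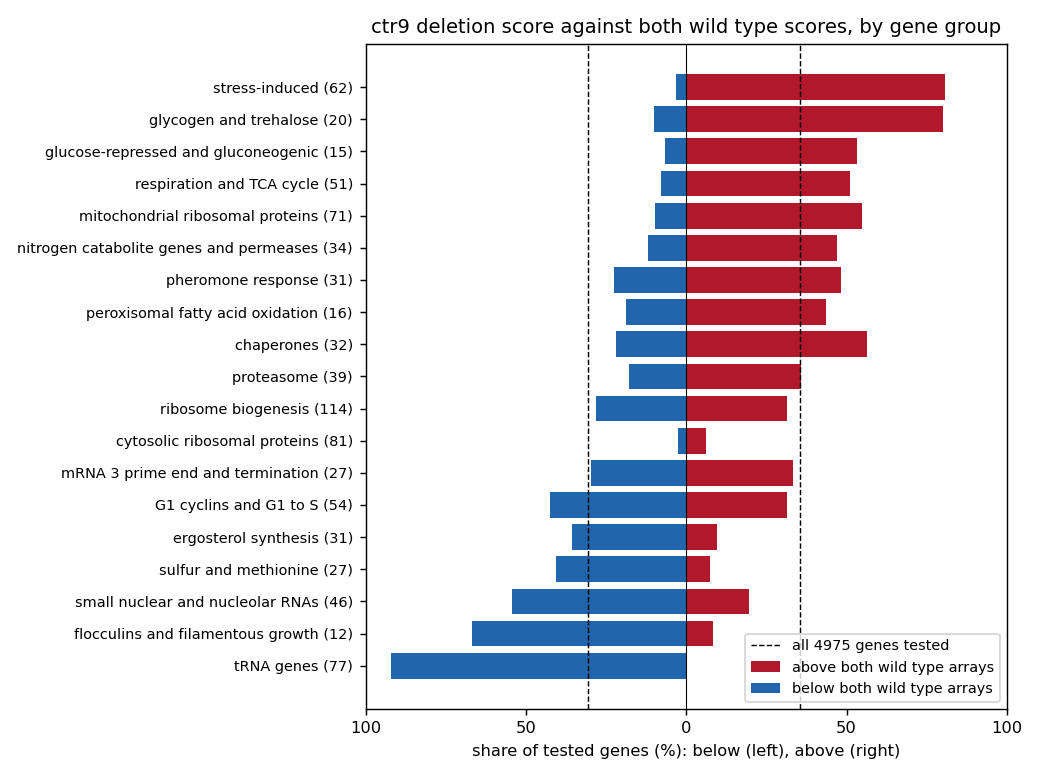
For 19 gene groups (number of tested genes in brackets), bars give the share whose ctr9 deletion score was above both wild type scores (red, right) or below both (blue, left), in percent. Dashed lines mark the shares over all 4975 genes, 35.5% above and 30.5% below. Stress-induced genes stand at 80.6% above and tRNA genes at 92.2% below.

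Among the lowest gaps, TDA6, on chromosome XVI, scored 7.99 and 6.22 in wild type against 1.89 in the ctr9 deletion. TRI1, which encodes a sumoylated protein, scored 6.25 and 6.20 in wild type against 2.04 in the deletion. Its wild type arrays differed by only 0.05, and the difference was -4.19 (SE 0.702, limma adjusted p = 0.0937). ATF2, an alcohol acetyltransferase that also acts on sterols, had 6.74 and 6.83 in wild type against 2.90, and ADH5, an alcohol dehydrogenase, 7.22 and 5.53 against 2.40. MGA1, a regulator of filamentous growth, had 6.98 and 6.02 in wild type against 2.61. In each of these genes the ctr9 array was low and both wild type arrays high. Of 12 tested genes of flocculation and filamentous growth, 8 (66.7%) were below both wild type arrays and 1 (8.33%) above. Over all genes these shares were 30.5% and 35.5%. The median difference of the 12 genes was -0.60. FLO10, a flocculin, scored 8.57 and 7.48 in wild type against 5.79 in the deletion, and KSS1, the filamentation kinase, 5.59 and 6.26 against 3.83.

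Dolichol supports the glycosylation of proteins, and 2 genes of its metabolism were clear lower. SEC59, dolichol kinase, scored 6.31 and 5.51 in wild type against 2.67 in the ctr9 deletion, and CAX4, dolichyl pyrophosphate phosphatase, 3.64 and 4.74 against 1.46. Of the 34 tested genes of dolichol and glycosylation, 6 (17.6%) were above both wild type arrays and 12 (35.3%) below both. The share below was close to the 30.5% of all genes. The 2 clear genes were 5.88% of the list, beside 1.47% of all genes. Sterol genes gave 3 (9.68%) above and 11 (35.5%) below of 31, beside 35.5% and 30.5% of all genes. YEH1, a steryl ester hydrolase, was clear lower at 9.07 and 8.82 against 6.43. Sulfur and methionine genes gave 2 (7.41%) above and 11 (40.7%) below of 27. None of them was clear, and their wild type arrays differed by a median of 0.55.

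In the cell cycle list SWI4, the DNA-binding subunit of the SBF factor of G1 transcription, scored 3.68 and 4.03 in wild type against 1.24 in the ctr9 deletion, in the background range. MCD1, a cohesin subunit, had 3.87 and 4.14 in wild type against 1.98, and CLN1, a G1 cyclin, 7.83 and 8.12 against 6.20, which was not clear. On the other side DUN1, a DNA damage kinase, had 4.61 and 2.98 in wild type against 6.26. Over the 54 tested genes of G1 and entry into S phase, 17 (31.5%) were above both wild type arrays and 23 (42.6%) below both. Over all genes these shares were 35.5% and 30.5%. The median difference of the 54 genes was -0.11 (-0.20 against the first wild type array alone).

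Among factors of mRNA 3′ ends and termination, SYC1, a subunit of the cleavage and polyadenylation factor, scored 6.36 and 5.68 in wild type against 2.66 in the ctr9 deletion. PAP2, the poly(A) polymerase of the TRAMP complex that marks nuclear RNA for the exosome, scored 5.67 and 5.52 against 2.57. The other genes of this list lay on either side. Of the whole list of 27, 9 (33.3%) were above both wild type arrays and 8 (29.6%) below both. These shares were near the 35.5% and 30.5% of all genes, and the median difference was 0.03. Factors of elongation and histone modification gave no clear gene of 28, beside 2.03% clear higher and 1.47% clear lower over all genes. The largest gaps among them were those of DST1, the elongation factor TFIIS, at 4.51 and 5.42 in wild type against 7.17 in the deletion, and of SDC1, a subunit of the H3K4 methyltransferase complex, at 4.72 and 4.00 against 2.35.

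Some small complexes were listed after their values had been seen, and their counts are a description only. AIR2, the RNA-binding subunit of TRAMP, scored 4.33 and 4.64 in wild type against 1.85 in the ctr9 deletion. Of the 5 TRAMP genes, 3 (60.0%, beside 30.5% of all genes) were below both wild type arrays. POP3, POP5 and POP6 are protein subunits of RNase P and RNase MRP, which process tRNA and ribosomal RNA precursors. POP6 scored 6.23 and 5.98 in wild type against 3.34 in the deletion, POP3 5.13 and 5.05 against 2.81, and POP5 6.66 and 6.43 against 4.27. Of 11 genes of RNase P and MRP, 8 (72.7%) were below both wild type arrays and 2 (18.2%) above, beside 30.5% and 35.5% of all genes. Clear lower were 3 (27.3%, beside 1.47% of all genes). The median difference was -1.06, which was -0.54 over the 6 genes left with the brightness limit at the 50th percentile. PUS9, which makes pseudouridine in mitochondrial tRNA, had 5.68 and 5.13 in wild type against 2.11. On the higher side, 7 of 9 tested genes (77.8%) of the GID ubiquitin ligase, which degrades gluconeogenic enzymes when glucose returns, were above both wild type arrays. None was below both. Over all genes 35.5% were above both and 30.5% below both. GID11, RMD5 and VID30 were clear higher (33.3%, beside 2.03% of all genes). The median difference of the 9 genes was 1.355. It was 0.655 with no brightness limit and 0.285 with the limit at the 50th percentile. HDA3, a subunit of the HDA1 histone deacetylase, had 1.98 and 1.66 in wild type against 5.00, and HOS2, the Set3 complex deacetylase, 3.03 and 1.55 against 5.11. The wild type means of both were under the brightness limit of 2.84, so they were tested only through the deletion arrays. Of 7 tested deacetylase genes, 3 (42.9%) were above both wild type arrays and 2 (28.6%) below, beside 35.5% and 30.5% of all genes.

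Genes of the cell surface, iron and metabolism filled further places among the highest gaps. DSE2, a glucanase that separates daughter from mother cells, scored 1.17 and 1.82 in wild type, in the background range, against 4.86 in the ctr9 deletion. CTS1, the chitinase of the same step, scored 7.27 and 7.38 against 8.91. Of 14 daughter separation genes, 5 (35.7%) were above both wild type arrays, near the 35.5% of all genes. Below both was 1 (7.14%, beside 30.5%). PIR3, a cell wall protein, scored 2.37 and 1.73 against 4.94, but cell wall genes gave only 11 (22.9%) above and 15 (31.25%) below of 48. FIT2, a cell wall protein that holds iron carriers, scored 2.95 and 3.50 against 6.69, while FRE4, a reductase for iron carriers, lay on the other side with 5.80 and 8.34 against 3.99. SNZ1, of vitamin B6 synthesis, scored 5.18 and 4.88 against 7.73, GOR1, a glyoxylate reductase, 2.55 and 3.31 against 6.67, and HXT5, a hexose transporter, 1.91 and 0.86 against 4.20. The mitochondrial gene SCEI, an endonuclease encoded in an intron, scored 1.18 and 0.89 against 4.59. In wild type DSE2, PIR3, HXT5 and SCEI were under the brightness limit of 2.84, and they were tested only through the deletion arrays.

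Most tRNA genes and many small nucleolar RNA genes scored below both wild type arrays. The classes tRNA and snoRNA are those of RefSeq (assembly R64), and the tRNA class was taken up after its values had been seen. Of 77 tested tRNA genes, 71 (92.2%) scored below both wild type arrays in the ctr9 deletion, none above both and 6 between them. Over all genes 30.5% were below both and 35.5% above both. The median tRNA score was 5.12 and 5.74 in wild type against 3.93 in the deletion, while the median of all genes was 6.40, 6.17 and 6.40 on the same arrays. Single tRNA genes differed from the wild type mean by -2.60 to 0.20, with a median of -1.23. Clear lower were 5 (6.49%, beside 1.47% of all genes). YNCE0014W, on chromosome V, scored 6.75 and 6.08 in wild type against 3.90 in the deletion, and YNCB0013W, on chromosome II, 7.97 and 7.38 against 5.47. The lowest adjusted p of any tRNA gene was 0.290 (limma), so none passed, although 23 of the 77 (29.9%) had an unadjusted p under 0.05, against 9.64% of all probe sets. The 14 tRNA genes too dim to be tested gave 11 below both wild type arrays and none above. tRNA genes of 1 family share sequence, so their probe sets are not independent of each other.

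**Figure D4:**
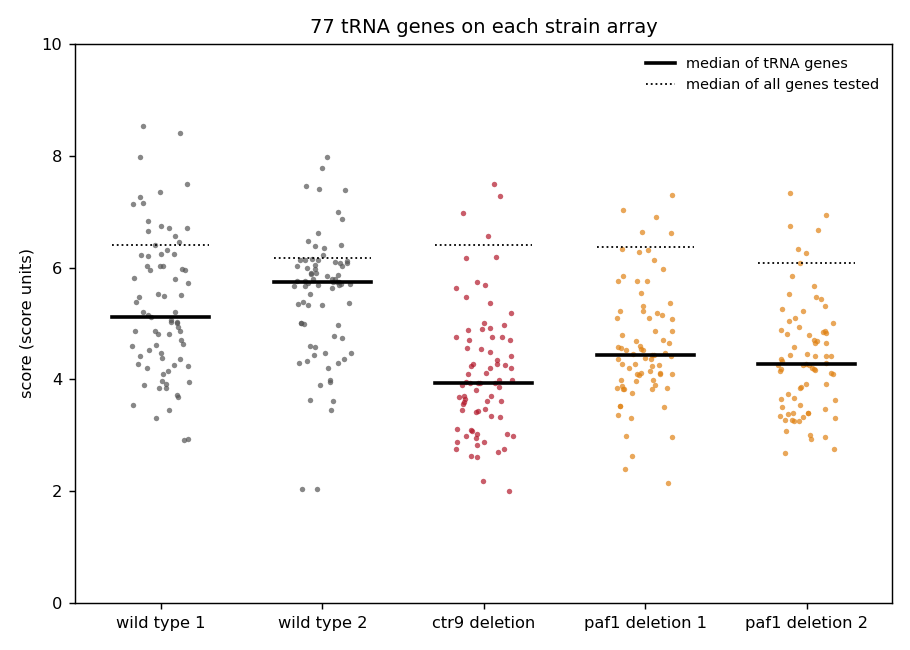
Scores of 77 tRNA genes are plotted on each of the 5 strain arrays, with a thick line at their median and a dotted line at the median of all 4975 genes. The ctr9 deletion array has the lowest tRNA median, 3.93, against 5.12 and 5.74 in wild type.

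Other transcripts of RNA polymerase III did not share 1 direction. SNR52, a guide RNA for methylation of ribosomal RNA that polymerase III makes, scored 4.61 and 5.75 in wild type against 1.43 in the ctr9 deletion. SNR6, the U6 spliceosomal RNA, scored 5.80 and 6.16 against 4.81. RPR1, the RNA of RNase P, scored 5.47 and 6.15 against 6.78, above both wild type arrays. Small nuclear and nucleolar RNAs, most of which polymerase II makes, gave 9 (19.6%) above and 25 (54.3%) below of 46. Over all genes these shares were 35.5% and 30.5%. The median difference of the 46 was -0.47 (-0.26 with the brightness limit at the 50th percentile). SNR3 was the other clear member of that list, at 8.31 and 6.92 in wild type against 4.96 in the deletion, and SNR38 lay farthest above, at 4.92 and 5.74 against 7.45. TLC1, the telomerase RNA, scored 6.86 and 6.39 against 3.74.

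Some probe sets for ribosomal RNA lie among the manufacturer's controls. The one named 25srRnae scored 2.08 and 0.85 in wild type against 4.27 in the ctr9 deletion, and 18srRnaa 1.54 and 1.02 against 3.66, but of these 10 control probe sets only 3 lay above both wild type arrays. Outside the controls, RDN25-1, of the 25S RNA, scored 3.51 and 1.73 in wild type against 5.22 in the deletion, with 8.13 and 5.71 in the paf1 deletion. RDN5-3, of the 5S RNA, had 3.49 and 2.80 against 3.11, and RDN37-1, of the precursor, 9.12 and 8.77 against 9.08, both between the wild type scores. Whether ribosomal RNA carried into the samples had a part in the tRNA scores was not tested. Actin gave a score of 7.99 with the 5′ probe set and 7.32 with the 3′ probe set in the deletion, against 8.21 and 7.93 on the first and 7.55 and 6.95 on the second wild type array.

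The paf1 deletion arrays, which use the same wild type arrays as their reference, are given here by their own values. For YNR064C they scored 6.33 and 6.91, for AGP2 5.95 and 6.99, for HSP26 8.79 and 8.58, for TDA6 3.42 and 1.37 and for TRI1 3.62 and 4.01. Since both comparisons share their controls, no overlap between them is given. For the tRNA genes their medians were 4.44 and 4.28. The ctr9 score was below both paf1 scores in 45 tRNA genes and above both in 12.

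The ctr9 array stood 1.86 or more beyond all 4 other strain arrays in 4 genes, which this rule, set after the values were seen, picked out. CHA1, the serine and threonine deaminase that is induced by these amino acids, scored 1.97 and 2.40 in wild type and 5.43 in cells without Ctr9, while the paf1 deletion arrays scored 2.92 and 3.38. Its wild type scores were under the brightness limit of 2.84, so CHA1 was tested only through the deletion arrays. DNA2, a helicase and nuclease of DNA replication, scored 5.15 and 4.71 in wild type, 7.92 without Ctr9, and 5.79 and 5.34 without Paf1. AZF1, a zinc-finger transcription factor, scored 2.52 and 3.29, 5.69, and 3.56 and 3.37 in the same order. YCL049C was the only one on the lower side, at 5.94 and 4.88 in wild type, 1.85 without Ctr9, and 4.49 and 3.81 without Paf1. In a model of paf1 deletion minus ctr9 deletion none of these 4 passed (limma). GCV1, a subunit of glycine decarboxylase, scored 3.37 and 3.53 in wild type and 6.84 without Ctr9, while the paf1 deletion arrays scored 3.45 and 5.76, so there the paf1 arrays disagreed with each other.

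The TetO2-Paf1 arrays share no sample with the strain arrays, and hold a linear signal with 1 array per time. PAF1 itself had 272 signal units at 0 h, then 118.8, 139, 164.8, 184 and 165.8 at 2, 4, 5, 6 and 8 h. Its signal was thus lowered but not lost, with a ratio of 0.61 at 8 h. Of the 101 clear higher genes of the ctr9 deletion, 92 (91.1%) had a higher signal after 8 h of doxycycline than at 0 h, and 55 (54.5%) were at least 2-fold higher. Over all 4975 genes the shares were 58.4% and 5.81%, and over the 617 genes with a wild type mean score under 4 they were 72.8% and 16.4%. The median ratio of the 101 genes was 1.39, 1.64, 1.51, 1.86 and 2.08 at 2, 4, 5, 6 and 8 h. HSP26 had 291.8 signal units at 0 h and 1778 at 8 h, GLC3 had 88.6 and 578.9, GPH1 had 133.8 and 752.8, and ARG3 had 304 and 914.7. FIG1 and CHA1 were lower at 8 h than at 0 h, with ratios of 0.79. These ratios have no replicate check.

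The 73 clear lower genes were above their 0 h signal in 21 cases (28.8%) at 8 h, with a median ratio of 0.823. ATF2 had 223.5 signal units at 0 h and 88.4 at 8 h, and SNR52 had 130.7 at 0 h and 0.153 of that at 8 h. MGA1, which was low in the ctr9 deletion, had 17.4 and 33.9. The 77 tRNA genes had a median signal of 218.8 before doxycycline, then 124, 109.7, 81.7, 263.2 and 127.4 after 2, 4, 5, 6 and 8 h. They were thus lower than at 0 h at 4 of the 5 later times, and the 6 h array stood apart. Spike-in transcripts gave 4.07-fold their 0 h signal on the 6 h array and 4.37-fold on the 4 h array, against 1.02- to 1.11-fold at the other later times, and the actin 5′ to 3′ ratio was 5.92% at 4 h against 68.6% to 78.6% elsewhere.

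**Figure D5:**
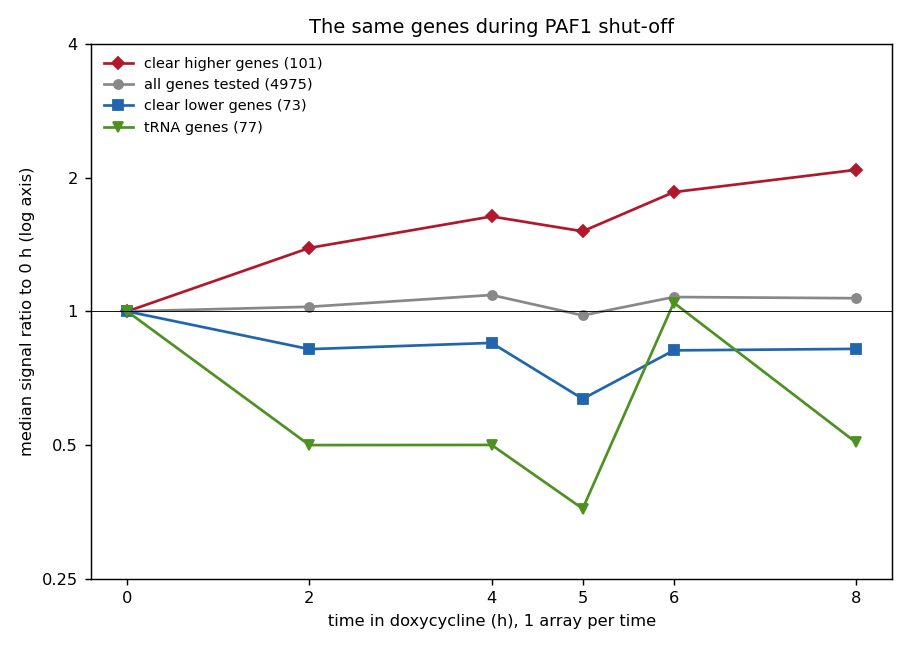
Median signal ratio to 0 h (log axis) is plotted against hours in doxycycline, with 1 array per time, for the clear higher and clear lower genes of the ctr9 deletion, the tRNA genes and all genes tested. The clear higher genes reach 2.08 at 8 h, the clear lower genes 0.823, all genes 1.07 and the tRNA genes 0.507, with the tRNA genes back at 1.05 at 6 h.

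By nuclear chromosome the median difference ran from -0.11 (chromosome IX, 166 genes) to 0.23 (chromosome I, 71 genes), and the wild type arrays differed by medians of 0.11 to 0.46 across the same chromosomes. Chromosome XIII held 15 of the 101 clear higher genes, 3.72% of its 403 tested genes, and chromosome I held none of them. The 7 tested genes of mitochondrial DNA had a median difference of 0.52, with wild type arrays that differed by a median of 0.57. That median was -0.35 against the first wild type array alone and 0.13 against the second, so its sign changed. Of the 7 genes, 2 (28.6%, beside 35.5% of all genes) were above both wild type arrays and 1 (14.3%, beside 30.5%) below both. SCEI was the 1 clear higher gene among them.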

How the data were processed

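The strain columns hold, as deposited, a score per probe set that runs from -10 to 10. The 6 TetO2-Paf1 columns hold a linear signal intensity that the authors had brought to a common level per array, judging from the values. The software, background step and scale of the score are not given in the sources used here. Of 9335 probe sets, 60 controls were left out. Exactly 1 gene is listed for 6504, several genes for 328 and none for 2443. Symbols, classes and chromosomes come from RefSeq R64 through the gene IDs, and no coordinates are given because the array's build is not named.

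Scores were used without a logarithm. A probe set was kept when its mean over the 5 strain arrays reached the 30th percentile of such means (2.842), which left 6493. limma 3.58.1 in R 4.3.3 (lmFit, eBayes with trend) was fitted on the 5 arrays with 2 residual degrees of freedom, two-sided, with Benjamini-Hochberg adjustment. Signals under 5 were set to 5 before ratios. The members, gene lists and rules were chosen with earlier results of these data known, and the lists for tRNA, RNase P, TRAMP, GID and deacetylases after values were seen. Named genes are the Paf1 complex, its neighbours at CTR9, every call, the genes with the 20 highest and 20 lowest gaps, and the list members with the largest gaps. Others were chosen after their values were seen.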

Additional observations from a re-analysis of the deposited data

Results flagged for a closer look

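In a direct test of the paf1 deletion (2 arrays) against the ctr9 deletion (1 array), 4 of 6493 probe sets differed (limma, Benjamini-Hochberg), all lower in the paf1 deletion. PAF1, deleted in one of the strains, differed by -6.13 score units, with 1.00 and 0.47 without Paf1 against 6.86 without Ctr9 (limma adjusted p = 0.0110). TRP1, of tryptophan synthesis, differed by -8.59, with -0.65 and -1.96 against 7.28 (limma adjusted p = 0.00269), and its wild type scores were 7.56 and 7.24. SRD1 differed by -6.13, with 0.66 and 1.83 against 7.37 (limma adjusted p = 0.0126). The probe set 10185_s_at, listed with 4 genes, differed by -7.25, with 1.40 and 1.51 against 8.70 (limma adjusted p = 0.00227). In TRP1, SRD1 and this probe set the ctr9 deletion was within 0.5 of the wild type mean. TRP1 is among the strain marker genes, and no other marker gene that was tested passed. HIS3, another marker gene, was under the brightness limit. It scored -1.69 and -0.54 in wild type, 0.05 in the ctr9 deletion, and 7.25 and 7.30 in the paf1 deletion. The labels give no genotypes, and a difference in markers between the strains was not tested. An effect of the deletion and a difference in strain background cannot be told apart here.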

How the results depend on the processing

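The count of 2 calls was 0 with no filter, with the filter at the 50th percentile, with quantile normalization, with the trend of the score removed and with eBayes without trend, 1 with a filter on the TetO2-Paf1 signal, and 94 with the wild type and ctr9 arrays only. With a replicate block over the wild type and paf1 deletion numbers it was 25. The deviations of same-numbered arrays correlated at 0.00804 over 6493 probe sets, so the samples share only a number. Leaving out single arrays gave 0 to 108. The 101 clear higher genes became 60 with the filter at the 50th percentile, 184 with the limit at the 90th percentile and 26 at the 99th, and 205 to 247 without 1 wild type array, which leaves a single array to be clear of. The 73 clear lower genes became 146, 17 and 143 to 174 under the last 3 of these. The other alternatives gave 79 to 108 and 51 to 91. tRNA genes below both wild type arrays, an alternative added after seeing the data, were 31 of 33 with the filter at the 50th percentile and 71 to 82 otherwise, with a median difference of -1.38 to -1.09. Gaps were recomputed for 335 genes, most of them added after seeing the data, and none of the 79 clear ones among them changed side, while 12 were no longer clear with no filter, where the limit is 2.20. PCK1 and RSM22 lost it with quantile normalization too, and 45 others became clear in some alternative. CTR9 passed the limit with quantile normalization, with the trend removed, with the filter on the TetO2-Paf1 signal and without the first wild type array, and CAN1, a strain marker, without the second. The median over all genes, 0.06, was 0.21 and -0.11 against single wild type arrays. The list median of peroxisomal fatty acid oxidation became -0.06 with the filter at the 50th percentile, which leaves 7 genes. Against single wild type arrays the median of sterol genes was -0.41 and 0.10, of sulfur genes -0.31 and 0.21, of cytosolic ribosomal proteins -0.35 and 0.51, of ribosome biogenesis -0.18 and 0.24, and of mRNA 3′ ends -0.21 and 0.13. The cause of the other shifts was not tested. With 1 ctr9 array, no result has a replicate of the deletion.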
